A study of Homo sapiens with 8 samples.

Results

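The sites described here are the FLI1 binding sites that passed in each of 3 ChIP-Seq libraries of germinal center B-cell (GCB) diffuse large B-cell lymphoma (DLBCL). They were chosen by the peak lists themselves, as peaks of VAL replicate 1 with a -log10 q of at least 3 that overlapped by at least 1 bp a peak past the same limit both in VAL replicate 2 and in OCI-Ly1 replicate 2, called the OCI-Ly1 library below. Peaks on chromosome 8 between 86 and 87 Mb and on chromosome 4 between 49 and 50 Mb of GRCh37 were left out. The choice gave 558 shared sites out of 973 passing peaks of VAL replicate 1 and out of 12801 passing peaks in the 3 lists. The -log10 q is the peak caller's adjusted p-value on a log scale, so that 3 stands for a q of 0.001.

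FLI1 was immunoprecipitated with a rabbit polyclonal antibody from VAL and OCI-Ly1 cells, established lines whose labels give GCB as the cell of origin and name no treatment. Each of the 2 lines had 2 FLI1 replicates, labelled rep1 and rep2, and 2 samples of input DNA, which were not analysed here. The list of OCI-Ly1 replicate 1 held 37 intervals, 33 of them over 1 Mb long, and was not used, so OCI-Ly1 stands on 1 library. Of the listed peaks, 0.483% passed in the OCI-Ly1 library, and 0.41% and 0.656% passed in replicates 1 and 2 of VAL. VAL replicate 1 set the size of the shared group, because 2525 sites passed in the OCI-Ly1 library and VAL replicate 2 when VAL replicate 1 was not asked for. All tests below run over sites within the same 3 libraries, so their p-values describe these sites and not a spread between cultures.

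FLI1 is a transcription factor of the ETS family, which shares a DNA-binding domain that reads a GGAA core. It works in blood stem cells, megakaryocytes, B lymphocytes and endothelium, and its gene lies in a chromosomal segment that is gained in part of DLBCL. Many ETS factors bind close to the transcription start site (TSS) of broadly expressed genes, where the core is preceded by CC.

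The sequences at the summits show this core. The first set holds the copy of CCGGAAA or CCGGAAG nearest to the VAL replicate 1 summit at 8 of the strongest shared sites, because it is the form of the core with the largest difference in share between summits and control windows among the motifs searched. Each line gives 29 bases of GRCh37, 5′ to 3′ on the strand that reads CCGGAA, with the motif in capitals.
CCDC77/KDM5A, chr12:498456-498484, plus strand: tcaggacttttCCGGAAGttaccgtgctg
FKBP1A, chr20:1373853-1373881, plus strand: ccccgagacctCCGGAAGcccggaggcct
UFD1/CDC45, chr22:19466720-19466748, plus strand: ccagaggctcaCCGGAAGtgccggacccg
SIRT6/ANKRD24, chr19:4182578-4182606, plus strand: ggccgcttccgCCGGAAGcggggcggggc
TUT7, chr9:88969356-88969384, minus strand: agcgctgagcgCCGGAAGtggggccgaag
CEP95/DDX5, chr17:62502861-62502889, plus strand: gaaatagctcaCCGGAAGtgcgctgctcg
DDX39B, chr6:31509777-31509805, minus strand: gaagcctgcaaCCGGAAGtgaaggcagat
WASL, chr7:123389160-123389188, plus strand: gggggagcgcgCCGGAAAcgcgcggctgc

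The second set shows strong sites without such a copy, or with a copy that runs on into a second element. Here GGAA is followed by 1 base and then by CANNTG, the E-box read by basic helix-loop-helix factors. Both elements and the base between them are in capitals.
SCAMP4/ADAT3, chr19:1905739-1905767, minus strand: agggccaccGGAAGCAGCTGgaggatacg
RNF121, chr11:71640049-71640077, plus strand: ttgagcagcGGAAGCAGCTGgctcgcgcg
LYL1, chr19:13215264-13215292, plus strand: ctcagggcaGGAAGCACCTGgtctggagc
TLE3 (nearest gene), chr15:70272336-70272364, minus strand: ctgtgcgccGGAAACACCTGgagaccttg
EARS2, chr16:23568940-23568968, minus strand: agcccggccGGAAACAGGTGgaggtttct
PSMD4, chr1:151227138-151227166, plus strand: gacggaggcGGAAGCAGCTGgccaagccg
MZB1, chr5:138724385-138724413, plus strand: gtttgagcaGGAAGCACCTGtgaggctgt

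CCGGAAA or CCGGAAG lay wholly within 50 bp of the summit, on either strand, at 329 of 558 shared sites in the OCI-Ly1 library (59%, Wilson 95% interval 54.8 to 63). VAL replicate 1 had it at 321 sites (57.5%, 53.4 to 61.6), and VAL replicate 2 at 326 (58.4%, 54.3 to 62.4). Windows of the same length centred 250 bp to the right held the motif at 16, 20 and 25 sites, in the same order. At the VAL replicate 1 summits, 305 sites held the motif in the summit window alone and 4 in the control window alone (two-sided exact McNemar test over sites, p = 7.24e-85, adjusted over 9 tests p = 2.17e-84). The exact McNemar test gave an adjusted p of 3.4e-90 for the OCI-Ly1 library and of 3.5e-80 for VAL replicate 2. The motif was at all 3 summits of 285 shared sites, at some of them in 68 and at none in 205.

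**Figure D1:**
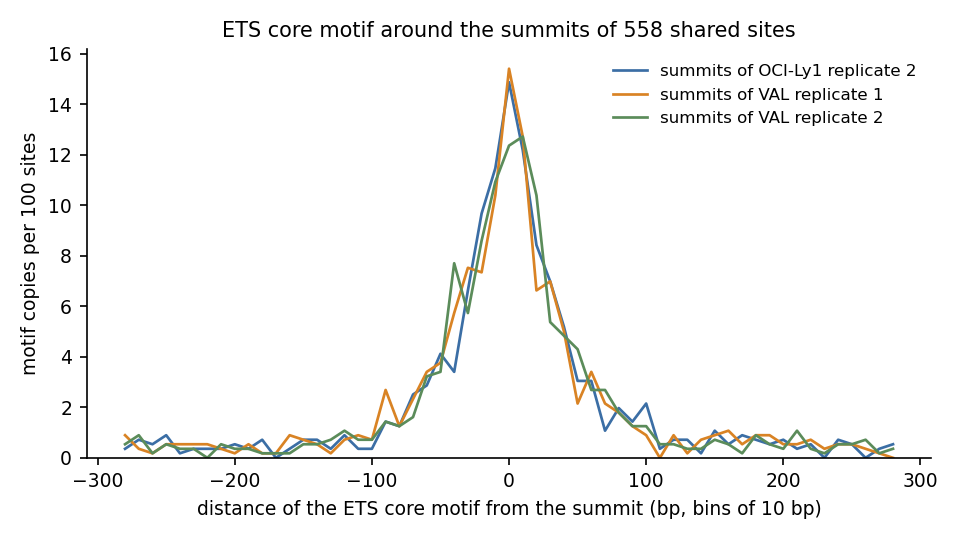
Copies of CCGGAAA or CCGGAAG per 100 shared sites (vertical axis) in bins of 10 bp by distance from the summit (horizontal axis, bp), for the summits of each of the 3 libraries. All 3 lines peak at the summit and are low beyond 100 bp on either side.

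The nearest motif centre lay within 10 bp of the VAL replicate 1 summit at 153 sites and within 25 bp at 250 sites. The summits of the 3 libraries were close as well, with a median distance of 20 bp between the OCI-Ly1 library and VAL replicate 1 (quartiles 7 and 40), 20 bp between the VAL replicates (10 and 39) and 19 bp between the OCI-Ly1 library and VAL replicate 2 (9 and 37). All 3 fell within 50 bp of each other at 393 of 558 sites. At 24 sites, 4.3% of the total, they were more than 500 bp apart, up to 2065 bp.

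Most shared sites with the motif were promoter sites. The motif was at the VAL replicate 1 summit of 306 of 481 shared sites within 3 kb of a TSS (63.6%, 59.2 to 67.8). Of 77 shared sites further away, 15 held it (19.5%, 12.2 to 29.7). The latter include sites of high background or in repeated sequence, described below, which were not set aside here. In the distal sites no control window held it, and the exact McNemar test gave an adjusted p of 6.1e-05. For comparison, 7.77% of 20091 windows of 101 bp that end at the 5′ end of an annotated protein coding gene held the motif. Of the shared sites, 219 had a single copy within 50 bp, 85 had 2 copies and 17 had 3 or more. Where there were at least 2 copies, at 102 sites, the closest ones lay on the same strand at 54 sites and on opposite strands at 48, with a median of 27 bp between their starts.

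The most copies were found at ELAC2, the tRNA 3′ end nuclease, with 4, where 2 pairs of overlapping copies on opposite strands share CCGG. There were 3 copies at 16 sites, of which FKBP1A, the gene of the prolyl isomerase bound by FK506, had the largest lowest -log10 q. The summit windows of FKBP1A and ELAC2 hold no annotated UTR and are shown whole, 101 bases on the plus strand with every copy in capitals.
FKBP1A, chr20:1373826-1373926: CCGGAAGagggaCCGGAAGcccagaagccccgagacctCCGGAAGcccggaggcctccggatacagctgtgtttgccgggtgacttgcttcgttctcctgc
ELAC2, chr17:12921513-12921613: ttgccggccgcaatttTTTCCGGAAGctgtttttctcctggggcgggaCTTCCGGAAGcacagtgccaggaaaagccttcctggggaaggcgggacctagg
The relation of copies to strength differed between the libraries and was not tested. Among sites with a fold of at least 3 in VAL replicate 1, the median fold in that library was 5.65 with no copy, 5.72 with 1, 5.69 with 2 and 5.68 with 3 or more. In the same order it was 9.94, 11.8, 12.2 and 12.5 in the OCI-Ly1 library, and VAL replicate 2 had 11.7, 12.5, 12.8 and 10.3. ELAC2 itself had a fold of 8.6 in the OCI-Ly1 library and of 7.98 and 7.63 in replicates 1 and 2 of VAL.

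The bases around the core were read at the CCGGAA copy nearest the middle of each summit window, in 332 shared sites. It was followed by G in 72.3% and by A in 21.1%, against 59.9% and 18.4% of 1888 coding promoter windows with CCGGAA. The next base was T in 49.4% of shared sites and C in 40.4%, against 35% and 35.1%. The base before the core was A in 37.3%, against 19.3%. Where a coding TSS lay within 500 bp of the motif, at 275 sites, GGAA was on the strand of the gene at 136 and on the other strand at 139. The motif centre was upstream of that TSS at 206 sites and at or downstream of it at 69, with a median position 16 bp upstream (−16, quartiles −51 and 0).

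Other elements were compared with the same control windows at the VAL replicate 1 summits, over 18 motifs. CCGGAAGT, the fuller ETS site, was at 28% of summits and 0.896% of control windows (exact McNemar test, adjusted p = 4.77e-42), and GGAA alone at 93.4% and 63.1% (adjusted p = 2.2e-37). GGGCGG, the GC box of SP and KLF factors, was at 33.3% and 23.5% (exact McNemar test, adjusted p = 3.46e-04), beside 37.4% of coding promoter windows. GGAAGGAA, a tandem repeat of GGAA, was at 13 summits (2.33%) and 2 control windows (exact McNemar test, adjusted p = 0.0266), beside 1.12% of coding promoter windows. GAGGAAGT, the site of the related factor PU.1, was at 14 summits and 3 control windows (exact McNemar test, adjusted p = 0.0382). The other 12 elements were CCAAT (NFY), AAGATGGCG (YY1), GCATGCGC (NRF1), TGTGGT (RUNX), TGANTCA (AP-1), CCCNNGGG (EBF1), CAGGGGGC (CTCF), ATGCAAAT (the octamer), CACGTG (E-box), TGACGTCA (CREB and ATF), TACAATTCC (ZNF143) and GAAGTGAAA (ETS with IRF), searched on both strands, and they had adjusted p-values of 0.1 or higher in the exact McNemar test. CCAAT, the NFY element, was at 6.45% of summits and 7.17% of control windows, and TGTGGT, the RUNX element, at 4.66% and 2.33% (exact McNemar test, adjusted p = 0.106).

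Of the 237 shared sites without CCGGAAA or CCGGAAG at the VAL replicate 1 summit, 200 had GGAA there. The pairing of GGAA, 1 base and an E-box was noticed in the printed sequences of these sites, after their values were known, so its count on the shared sites is given without a test. It was within 50 bp of the VAL replicate 1 summit at 47 of 558 shared sites (8.42%, Wilson interval 6.39 to 11) and in 1 control window. With 0 bases between the elements it was at 1 site, with 2 bases at 2, and at no other spacing up to 10 bases at more than 8 sites. The E-box was CAGCTG at 24 sites, CACCTG at 17 and CAGGTG at 2, and the base between the elements was G at 28, A at 18 and C at 1. The pairing was at 36 of 237 sites without CCGGAAA or CCGGAAG (15.2%, 11.2 to 20.3) and at 11 of 321 sites with it (3.43%, 1.92 to 6.03). Its share was 14.3% of distal sites (8.17 to 23.8) and 7.48% of promoter sites (5.45 to 10.2), against 0.458% of coding promoter windows.

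**Figure D2:**
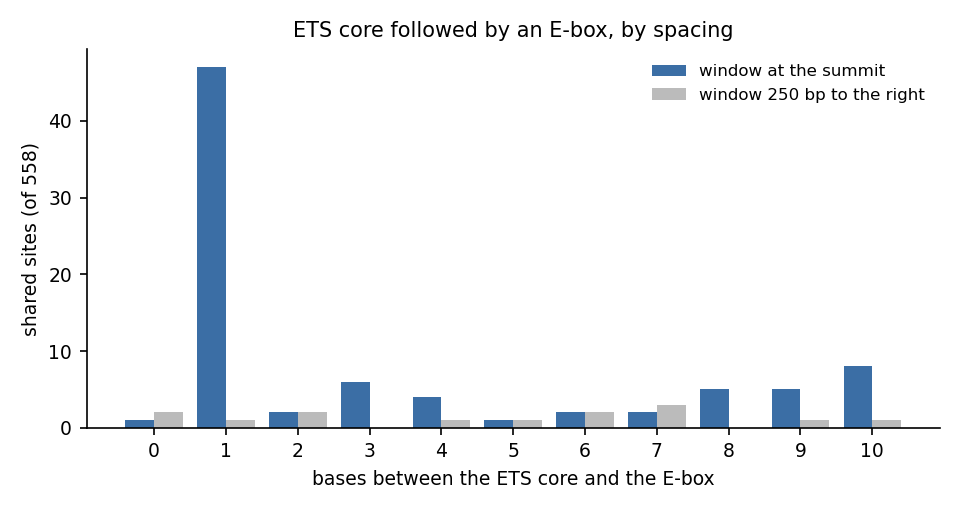
Number of shared sites (of 558, vertical axis) with an ETS core followed by an E-box, by the number of bases between them (horizontal axis), in the 101 bp at the VAL replicate 1 summit and in control windows 250 bp to the right. The bar at 1 base reaches 47 sites, and no other bar exceeds 8.

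Sites that passed in the OCI-Ly1 library and VAL replicate 2 but not in VAL replicate 1 had no part in finding this pairing. There it was at the OCI-Ly1 library summit of 54 of 1968 sites (2.74%) and in 5 control windows, with no site holding it in both (two-sided exact McNemar test, added after the data were seen, p = 1.91e-11). Of the other spacings there, 3 bases had the most sites, 24 against 5 control windows. With 0, 4 and 6 bases there were fewer sites than control windows. GGAA alone was also more frequent at VAL replicate 1 summits of shared sites than in control windows (93.4% against 63.1%). The test therefore does not separate the pairing from GGAA near an E-box at any spacing, and the difference between spacings was not tested. CCGGAAA or CCGGAAG, or the pairing with 1 base between, was at 357 of 558 shared sites (64%, 59.9 to 67.9). Among the sites with the pairing, the fold was higher in VAL replicate 2 than in the OCI-Ly1 library at 38 of 47, and among the other shared sites at 288 of 511. As each line is 1 library in this comparison, no test of the lines was made.

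LYL1, itself a basic helix-loop-helix factor of early blood cells, had the largest -log10 q of any shared site in VAL replicate 1, at 98. Its value was 22.6 in the OCI-Ly1 library and 155 in VAL replicate 2, and the folds were 13.7, 28.7 and 60.1 in the order of the OCI-Ly1 library, VAL replicate 1 and VAL replicate 2. OCI-Ly1 was the lower line on both scales at this site. RASGRP3, which activates RAS downstream of the B-cell receptor, was a weak site with the same pairing, with -log10 q values of 8.33, 4.66 and 3.84 in the same order. MZB1, a chaperone of antibody secretion, stood at 9.38, 10.7 and 30.7.

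The shared sites lay at promoters. The peak centre was within 3 kb of a TSS at 481 of 558 sites (86.2%, Wilson interval 83.1 to 88.8) and within 100 bp of one at 316 (56.6%). The other 77 centres were in introns at 40 sites, between genes at 33, in UTRs at 2 and in exons at 2. Of the 364 other passing peaks of VAL replicate 1, 126 were within 3 kb of a TSS (34.6%, 29.9 to 39.6), which is 51.6 points fewer (95% interval 45.7 to 57, two-sided Fisher's exact test over sites, adjusted over 12 tests p = 1.72e-58). Of the 1968 sites that passed in both lines but not in VAL replicate 1, 1707 were within 3 kb of a TSS (86.7%), and the difference of −0.537 points had an interval from −3.96 to 2.51 (Fisher's exact test, adjusted p = 0.791). The promoter share thus differed from that of the rest of VAL replicate 1, and no difference from the sites that VAL replicate 1 missed was detected within that interval.

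**Figure D3:**
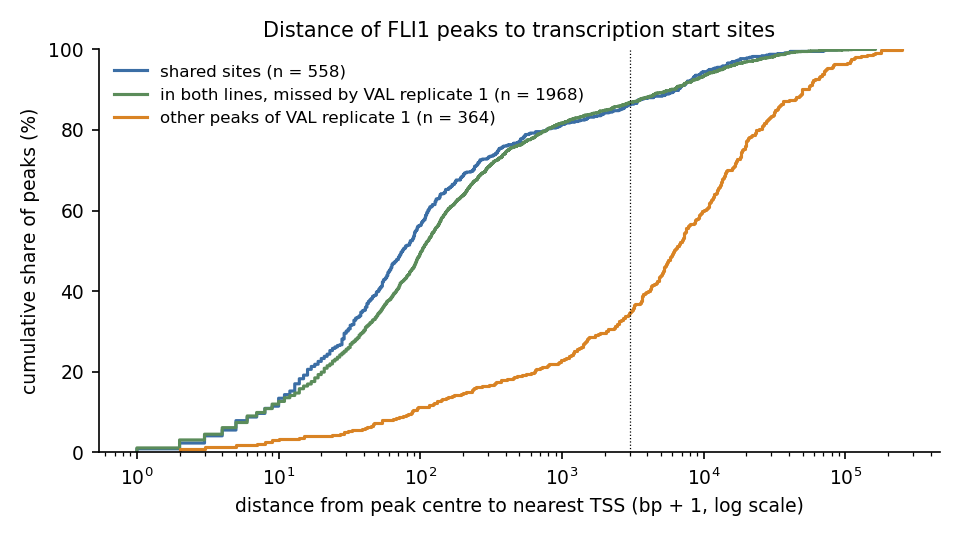
Cumulative share of peaks (vertical axis, %) by the distance of the peak centre from the nearest TSS (horizontal axis, bp + 1, log scale), for the shared sites, for sites of both lines that VAL replicate 1 missed and for the other passing peaks of VAL replicate 1. At the dotted line of 3 kb the shared sites stand at 86.2% and the other VAL replicate 1 peaks at 34.6%.

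Where a coding TSS lay within 500 bp, at 384 sites, the VAL replicate 1 summit was 1 to 100 bp upstream of it at 232 and at it or up to 100 bp downstream at 85. The median summit was 20 bp upstream (−20). The 501 bp around the summit had a median GC content of 62.9% and a median of 40 CpG, against 52.5% and 11 in the other VAL replicate 1 peaks and 64.7% and 41 in the sites that VAL replicate 1 missed. On both measures the shared sites were nearer to the latter.

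The motif share also set the sites apart. CCGGAAA or CCGGAAG was at 57.5% of shared sites and at 30 of the 364 other VAL replicate 1 peaks (8.24%), 49.3 points apart (interval 44 to 54, Fisher's exact test, adjusted p = 1.22e-56). The rule used peak strength, so the comparison was repeated within ranges of -log10 q in VAL replicate 1. Strength in the OCI-Ly1 library and VAL replicate 2 was not matched, as 240 of the 364 other peaks overlapped a passing peak in neither. Between a -log10 q of 3 and 5 in VAL replicate 1, the share was 56.2% of 201 shared sites and 7.39% of 284 other peaks (Fisher's exact test, adjusted p = 1.46e-32). Between 5 and 10 it was 63.3% of 210 and 12.1% of 66 (Fisher's exact test, adjusted p = 1.25e-13), and from 10 upwards 51% of 147 and 1 of 14 (adjusted p = 0.00195). Among promoter peaks alone, 63.6% of shared sites and 20.6% of the others held it (Fisher's exact test, adjusted p = 6.13e-18). Against the sites that VAL replicate 1 missed, at OCI-Ly1 library summits, the shares were 59% and 50.6%, 8.35 points apart (interval 3.67 to 12.9, Fisher's exact test, adjusted p = 8.09e-04). Those 1968 sites were weaker in the OCI-Ly1 library, with a median -log10 q of 6.62 against 15.7.

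The strength of the shared sites is a description, since it chose them. The median -log10 q was 15.7 in the OCI-Ly1 library (lowest 3.06, highest 175.5). In VAL replicate 1 it was 6.34 (3.001 to 98), and VAL replicate 2 had 17.5 (3.07 to 180.2). The median fold enrichment was 11.2, 5.63 and 12.1 in the same order. The fold was read as the ratio of summit reads to local background with 1 added to each. It is therefore smaller than the plain ratio of the reads where the background is low. At the median site 17, 19 and 17 reads were inferred at the summit, over a background of 0.512, 2.39 and 0.448 reads. VAL replicate 1 thus had as many reads at the summit over a higher background, and it held the lowest of the 3 -log10 q values at 447 of 558 sites. Across the 558 sites, which share the condition of passing in every library, Spearman's rho of the -log10 q was 0.58 between the OCI-Ly1 library and VAL replicate 2, 0.55 between the VAL replicates and 0.47 between the OCI-Ly1 library and VAL replicate 1.

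**Figure D4:**
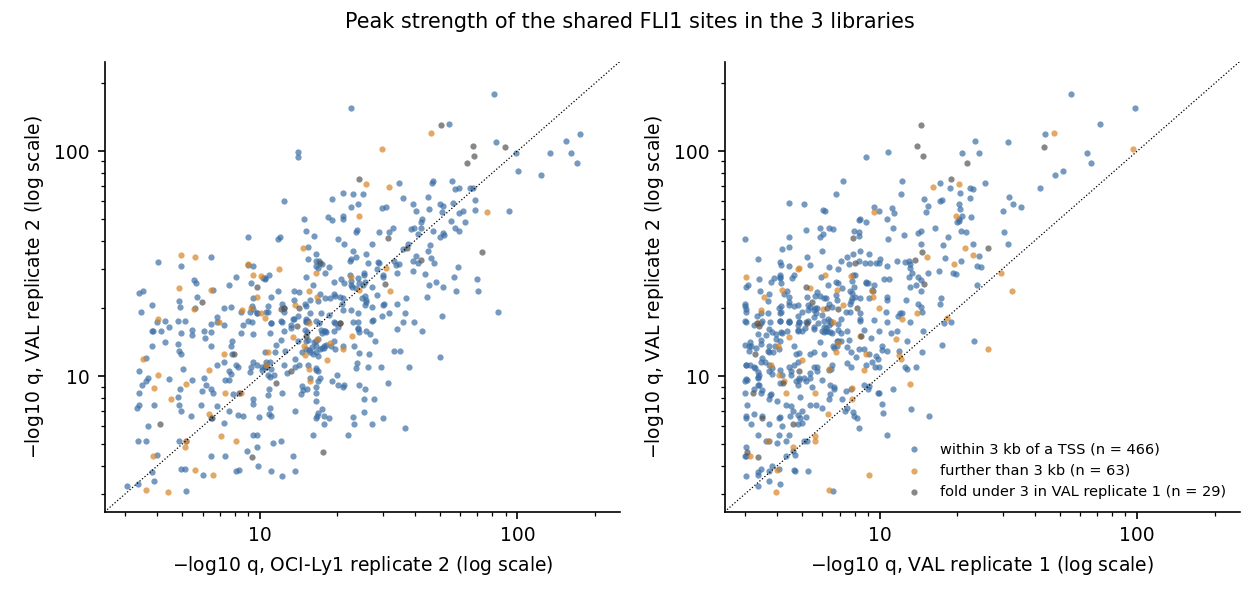
The -log10 q of each shared site in VAL replicate 2 (vertical axes, log scale) against the OCI-Ly1 library (left) and VAL replicate 1 (right), with the diagonal dotted and colors for sites within 3 kb of a TSS (n = 466), sites further away (n = 63) and sites with a fold under 3 in VAL replicate 1 (n = 29). Most points of the right panel lie above the diagonal.

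The strongest shared sites, ordered by the lowest of their 3 -log10 q values, sat mostly at promoters and at copies of multigene families. The divergent promoter of CCDC77 and KDM5A, a histone H3K4 demethylase, had -log10 q values of 80.9 in the OCI-Ly1 library and of 55.3 and 180.2 in replicates 1 and 2 of VAL. FKBP1A stood at 54.4, 71.7 and 132.6 in the same order, with folds of 24.7, 22.4 and 54.7. Both sites were highest in VAL replicate 2. ARHGAP30, which turns off small GTPases, had values of 123.7, 47.9 and 77.9 and no CCGGAAA or CCGGAAG within 50 bp. Its nearest GGAA was 18 bp from the summit (chr1:161039702-161039729, plus strand, GGAA in capitals: ctttagggggcaGGAAgcagtgcagctc). SCAMP4/ADAT3, which joins a membrane trafficking protein and a tRNA deaminase subunit, reached the highest -log10 q of the OCI-Ly1 library, with 175.5, 43.7 and 118.8. UFD1/CDC45, a pair of a ubiquitin chain adapter and a replication helicase subunit, had 65.6, 42.1 and 68.8, and SIRT6/ANKRD24, with the deacetylase SIRT6, had 39.2, 32.8 and 58.2. UBXN2B, an adapter of the p97 ATPase, closed the first 12 with 45, 31.8 and 62.3.

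Of the remaining strongest sites, 3 lay at repeated genes. WASH8P, a copy of a WASH complex gene near the end of chromosome 12, had -log10 q values of 170.5, 66.1 and 88.3, and the matching site on chromosome 15 (ENSG00000290823) had 161.3, 64 and 98.4. RNU1-1, a gene of the U1 small nuclear RNA, had 100.5, 51.7 and 81.5. At RNU1-1 the summit held no CCGGAAA or CCGGAAG, as at each of the 10 shared sites within 3 kb of U1 genes or copies.

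Divergent promoters were counted as a description, without a share over all coding promoters to set them against. A divergent pair of coding TSS lay within 1 kb of the peak centre at 74 of 481 promoter sites (15.4%, Wilson interval 12.4 to 18.9), with a median of 119.5 bp between the 2 starts. The sites that VAL replicate 1 missed had 15.9%, and the difference of −0.491 points had an interval from −3.95 to 3.38 (Fisher's exact test, adjusted p = 0.832). Among promoter peaks of the rest of VAL replicate 1 it was 8 of 126 (6.35%, 3.25 to 12), a difference that was not tested. Beside the pairs above, DDX5/CEP95 had -log10 q values of 133.9, 24.4 and 97.8, EARS2/UBFD1 had 49.96, 18.5 and 41.7, and EIF2B1/GTF2H3 had 19.5, 19 and 17.5. The last pair joins a translation initiation factor subunit and a subunit of the general factor TFIIH, whose starts are 51 bp apart.

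The shared sites put a peak within 3 kb of a TSS of 818 genes by symbol, of which 542 were protein coding, 175 lncRNA, 37 pseudogenes, 18 miRNA, 15 snRNA, 10 snoRNA and 5 rRNA genes. Protein coding genes with a shared site were 2.69% of the 20149 annotated, and this share is the background for the gene lists below. At 418 sites a coding TSS was within 3 kb, and at 63 only one of another gene type. CYBC1, DCAF13, SLC25A32, EXOSC3, STMN3 and CAB39L were the 6 protein coding genes with 2 shared sites each.

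Gene lists were described by their counts, without a test. Of 85 genes of RNA polymerase II, Mediator and general factors 8 had a shared site (9.41%, Wilson interval 4.85 to 17.5), of 86 cytosolic ribosomal proteins 8 (9.3%, 4.79 to 17.3), of 78 mitochondrial ribosomal proteins 7 (8.97%, 4.42 to 17.4), of 48 proteasome subunits 5 (10.4%, 4.53 to 22.2) and of 84 splicing factors 7 (8.33%, 4.1 to 16.2). For 3 of the 8 genes of the first list, GTF2H2, GTF2H2C and GTF2IRD2B, the site lies in repeated sequence (at least 35 of 70 words of 32 bases found elsewhere), and without them 5 of 85 remain (5.88%, 2.54 to 13, counted after the data were seen), an interval that includes the background of 2.69%. The lower bounds of the other 4 intervals lie above 2.69%, and none of their genes has a site in repeated sequence. These intervals are not adjusted for the number of lists, and the lists were chosen with earlier results of these data known. They describe the counts and are not a test of enrichment. The 8 genes of the cytosolic ribosomal list include RPL7L1, a relative of RPL7 rather than a ribosomal subunit itself. The share without RPL7L1 was not counted. The TFIIH subunits GTF2H1, GTF2H2 and GTF2H3 had sites, and GTF2H2 stood at a -log10 q of 45.4, 23.8 and 25.4 in the order of the OCI-Ly1 library, VAL replicate 1 and VAL replicate 2. Of the splicing factors, SNRPB, a core protein of the spliceosomal particles, was the strongest with 51.7, 14 and 43.1. RPS19 led the ribosomal proteins with 34.2, 17.1 and 21, MRPS34 the mitochondrial ones with 42.4, 6.34 and 45.6, and PSMD4, a ubiquitin receptor of the proteasome, the proteasome subunits with 59.5, 14.5 and 44.2.

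Of the other lists, 54 RNA helicases had 2 genes with a site, DDX5 and DDX39B (3.7%, 1.02 to 12.5), and 56 translation initiation factors had 3, EIF2B1, EIF3G and EIF2S3 (5.36%, 1.84 to 14.6). Both intervals include the background. Among 85 respiratory chain genes 3 had a site, with NDUFS3 at 45.5, 20.5 and 55. Zinc finger ZNF genes had 10 of 509 (1.96%, 1.07 to 3.58), led by ZNF143 at 50.1, 20.3 and 58.2. Of 68 replication-dependent histone genes, matched by symbol, H4C13 and H3C11 shared 1 site, at 34.8, 25.6 and 71.9. A further shared site on chromosome 6 lay 226 bp from the nearest TSS, that of HIST1H4B. This is an older symbol of a histone H4 gene, so the match by symbol left it out of the count. No gene of 34 cell cycle and E2F genes had a shared site (0%, upper bound 10.2%). Sites that passed in both lines and were missed by VAL replicate 1 lay at 4 genes of that list.

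Lymphoid lists had few members each. Of 30 genes of B-cell receptor signalling, PTPN6, the phosphatase SHP-1 that damps the receptor, and RASGRP3 had a shared site (6.67%, 1.85 to 21.3). The PTPN6 site, which lies at C12orf57 and the U7 gene RNU7-1, had -log10 q values of 29.1, 30.4 and 43.6. Of 30 lymphoid and germinal centre factors, POU2AF1, the B-cell partner of octamer factors, had values of 20.6, 4.44 and 22.5, and MEF2B shared a site with RFXANK at 15.4, 8.89 and 11.3. Among 28 MHC genes and regulators, RFXANK and CIITA, both activators of class II genes, had a site, with CIITA at 5.06, 6.45 and 10.7. The centre of the CIITA peak was 2785 bp from the nearest annotated TSS of any transcript, close to the limit of 3 kb. Of 39 NF-kB, TRAF and TNF receptor genes 1 had a shared site, MAP3K7 (2.56%, 0.454 to 13.2), at 13.5, 3.001 and 4.43. In the same list 8 other genes had a site that passed in both lines and was missed by VAL replicate 1. No share over all genes was counted for such sites. ARHGAP30 and PTK2B, a focal adhesion kinase of blood cells, were the 2 of 33 chemokine, adhesion and cytoskeleton genes, and LYL1 was the only 1 of 14 blood stem cell factors. Of 29 ETS factors, ELF2 (5.62, 5.7 and 20.2) and ELK4 (4.46, 5.55 and 16.5) had a shared site. BAD, a protein that favours cell death, was the 1 of 25 apoptosis and p53 genes, and KMT2D, a histone methyltransferase mutated in lymphoma, the 1 of 24 chromatin regulators. The intervals of all these lymphoid lists include the background of 2.69%.

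Repeated sequence was a feature of some shared sites. In the 101 bp at the VAL replicate 1 summit, at least 35 of the 70 overlapping words of 32 bases occurred elsewhere in GRCh37 at 71 of 556 shared sites with sequence (12.8%), against 168 of 363 other VAL replicate 1 peaks (46.3%, Fisher's exact test, adjusted p = 7.08e-29). Of the sites that VAL replicate 1 missed, read at OCI-Ly1 library summits, it was 213 of 1968 (10.8%). That difference of 1.95 points had an interval from −0.961 to 5.24 (Fisher's exact test, adjusted p = 0.237). The study's methods describe keeping reads that map to a single place, and the read length behind the lists is not given in the sources used here. The place of these peaks is therefore given with that limit. Among the shared sites, 12 fell into 5 groups with the same 29 bases at the motif. The genes GTF2H2, GTF2H2B and GTF2H2C on chromosome 5 carry 1 of these.
GTF2H2, chr5:70363540-70363568, plus strand: ttaggggcgccCCGGAAGtcattccgccg
GTF2H2B, chr5:69711130-69711158, minus strand: ttaggggcgccCCGGAAGtcattccgccg
GTF2H2C, chr5:68855983-68856011, minus strand: ttaggggcgccCCGGAAGtcattccgccg
Their -log10 q values in VAL replicate 1 were 23.8, 21.7 and 14.4.

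A group of 29 shared sites stood apart by a high local background. In VAL replicate 1 their fold was under 3, from 1.57, while the inferred background was 12.7 to 201.2 reads with a median of 54.9, against 2.34 in the other 529 sites. This limit was set after the values were seen. They include 7 sites on chromosome 2 near 133 Mb, 3 on chromosome 21 near 9 Mb, 3 next to DUX4 copies and 5 within 3 kb of 5S or 5.8S rRNA genes or copies. CCGGAAA or CCGGAAG was at 2 of the 29 (6.9%, Wilson interval 1.91 to 22) and at 319 of 529 (60.3%, 56.1 to 64.4), and 15 of the 29 were within 3 kb of a TSS (51.7%). The site at CTD-2328D6.1 on the X chromosome ranked 9 by its lowest -log10 q, with 89.8, 43.4 and 104.3, although its fold in VAL replicate 1 was 2.63, from 315 inferred reads over a background of 119. Without the 29 sites, 88.1% of the shared sites were within 3 kb of a TSS. With peaks of a fold under 3 left out of both sets, the motif share differed from that of other VAL replicate 1 peaks by 51.6 points.

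**Figure D5:**
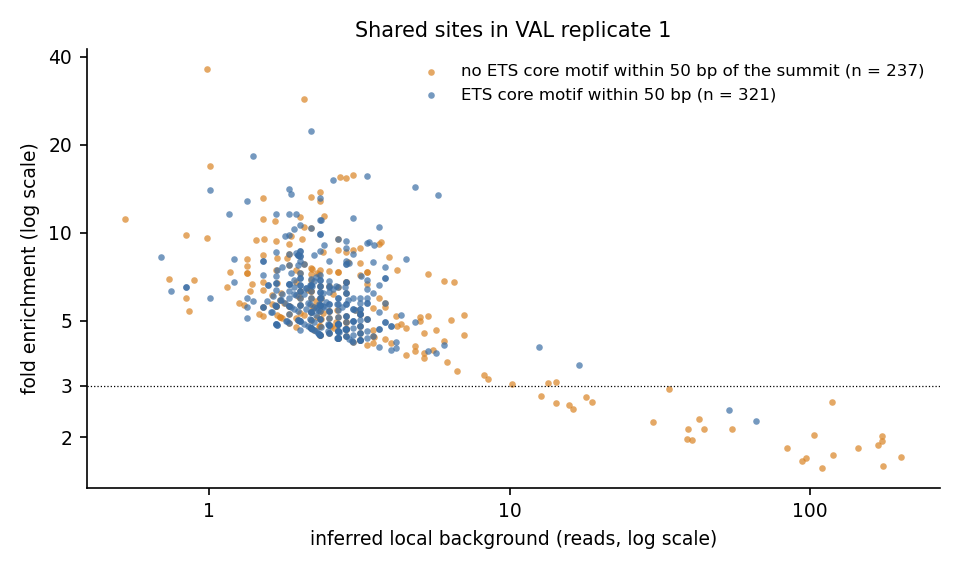
Fold enrichment (vertical axis, log scale) against the inferred local background (horizontal axis, reads, log scale) of the shared sites in VAL replicate 1, colored by the presence of CCGGAAA or CCGGAAG within 50 bp of the summit (n = 321 with, n = 237 without). Of the points under the dotted line at a fold of 3, 2 of 29 carry the motif.

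The 77 distal sites were led by a peak in an annotated UTR 9514 bp from the nearest TSS, that of the amino acid transporter SLC43A2, at -log10 q values of 46.4, 47.5 and 120.8. The next, in an intron 37283 bp from the TSS of ADARB2-AS1, stood at 29.9, 95.9 and 101.8, and 38 of its 70 words were repeated. A site near SNX18P10 on chromosome 21 and 1 near CDC27P1 on chromosome 2 belong to the high background group. The others of the first 8 were in introns, with the nearest TSS that of ADAMTS7 at 3439 bp (25.8, 20.3 and 71.2), C1orf131 at 14509 bp (16.5, 29.6 and 28.7) and ZC3H3 at 8739 bp (31.9, 16.1 and 69.5), and between genes 71517 bp from TLE3, a co-repressor (24.2, 19.9 and 51.4). TLE3 and C1orf131 carry the pairing of GGAA and E-box with 1 base between, and at ADAMTS7 the motif was found in the form CCGGAAGT.
ADAMTS7 (nearest gene), chr15:79054017-79054045, minus strand: cccagctgctcCCGGAAGtgctgagggca
C1orf131 (nearest gene), chr1:231347343-231347371, plus strand: gccttctccGGAAACACCTGtctgggccg

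The folds of the OCI-Ly1 library and VAL replicate 2, the libraries of like background, were within 2 times of each other at 491 of 558 shared sites, with a median ratio of 0.922. The fold was over 2 times higher in the OCI-Ly1 library at 15 sites and in VAL replicate 2 at 52. Named after their values were seen, LDLRAD4, a regulator of TGF-beta signalling, had the largest ratio toward OCI-Ly1, with folds of 19.2, 8.28 and 6.72 in the order of the OCI-Ly1 library, VAL replicate 1 and VAL replicate 2. The ratios toward VAL were largest at SNORD3B-2, a U3 small nucleolar RNA gene in repeated sequence (8.49, 5.03 and 39.5), and at LYL1. At LYL1 both VAL libraries were above the OCI-Ly1 library. At SNORD3B-2 the fold of VAL replicate 1 was below that of the OCI-Ly1 library, as was its median over the shared sites (5.63 against 11.2). With 1 OCI-Ly1 library these differences have no replicate check.

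At the threshold, the weakest members had a -log10 q of 3.001 in VAL replicate 1. These were MAP3K7 (13.5 in the OCI-Ly1 library and 4.43 in VAL replicate 2), CDKN2AIP (3.62 and 9.5) and CYBC1 (4.83 and 17.6). Just outside, with 2.997 in VAL replicate 1, were peaks at STOML2 (18.6 and 15.8), TRIM13 (5.2 and 23.9) and TVP23B (5.2 and 5.13).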

How the data were processed

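FLI1 ChIP-Seq of OCI-Ly1 and VAL was sequenced on a NextSeq 500. The study's methods describe alignment to GRCh37 with bowtie2, removal of reads with low mapping quality or several positions and of duplicates, and peaks called with HOMER at an FDR of 0.001. The submitters' processing notes name hg19, CASAVA 1.4 and BWA. These sources name different aligners, and the deposited lists have the columns of MACS2 narrowPeak output rather than of HOMER, so which run made them, and with which control, could not be settled. The deposited lists give for each peak a fold enrichment (a ratio to the local background, read here with 1 added to both counts), a -log10 p and a -log10 q by the authors' caller. A deposited integer score column was not used. The lists hold no depth. Summit reads and background were solved for each peak as the pair of Poisson counts that returns its listed enrichment and -log10 p.

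Overlaps of at least 1 bp, annotation with GENCODE 44 on GRCh37, motif searches on both strands and exact tests (Fisher, McNemar, two-sided, Benjamini-Hochberg adjusted) were run in Python 3.11.15 with numpy 2.4.6, pandas 2.3.3, scipy 1.17.1 and pysam 0.24.0, and tested on simulated data. Intervals cover counting error only. Sequences are from GRCh37. The members and gene lists were chosen with earlier results of these data known. Named sites were the 12 strongest by the lowest of the 3 -log10 q values, the 8 strongest beyond 3 kb of a TSS, the sites next to the threshold and the listed genes with a site. Other named sites were chosen after their values were seen. A site that the rule names is not reported here.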

Additional observations from a re-analysis of the deposited data

How the results depend on the processing

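No paired analysis was possible because the list of OCI-Ly1 replicate 1 was not used, so that the lines share only replicate number 2. The number of shared sites depended on the thresholds. It was 332 with a -log10 q of at least 5, 850 with at least 2 and 182 with an overlap of 50%, and it ranged from 594 without VAL replicate 2 to 2525 without VAL replicate 1 when each library was left out in turn. The promoter share was 81.4% within 1 kb, 74.9% with protein coding TSS only, 79.7% with an overlap of 50%, 89.3% with under 35 of 70 words repeated (added after the data were seen) and 82 to 86.5% when each library was left out. Without genes whose site lies in repeated sequence, the list of polymerase II, Mediator and general factors had 5 genes in place of 8, and the counts of the 20 other lists did not change. The number of genes was 476 with the closest TSS only and 486 at a -log10 q of at least 5. The 60 other values kept their direction and side of the threshold or stayed within the limits set for them, and none of the alternatives run reversed a result. Without input libraries and with 1 OCI-Ly1 library, the lists do not give a spread between cultures.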

Other observations

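The pairing of GGAA, 1 base and an E-box was also counted in the passing peaks of VAL replicate 1 that were not shared by all 3 libraries, as a description chosen after the data were seen. It was at 15 of 88 peaks that overlapped VAL replicate 2 only (17%, Wilson interval 10.6 to 26.2), at 0 of 36 that overlapped OCI-Ly1 replicate 2 only (upper bound 9.64%) and at 7 of 240 that overlapped neither (2.92%, 1.42 to 5.9). Among the 50 strongest shared sites it was at 8 (16%, 8.34 to 28.5), and among the 29 with a fold under 3 at 0.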
